A study of Mus musculus with 15 samples.

Results

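The 15 RNA sequencing libraries of this mouse study were made to measure what the loss of *Phf6*, which encodes a PHD finger protein of chromatin, does to the foetal cerebral cortex and to neurons taken from it. Here the 6 control libraries with intact *Phf6* were set against each other: 3 intact cortices of *Phf6*+/Y foetuses at E15.5, where E stands for embryonic day (E15.5 cortex), and 3 cultures of cortical neurons from *Phf6*+/Y;Nes-cre Tg/+ foetuses at E16.5 (E16.5 cortical neurons). They were chosen by their labels, and no measured value entered the choice. All 6 foetuses were C57BL/6 males and each gave 1 library. The cortices came from litters 3, 2 and 1 and the cultures from litters 4, 5 and 6, in the order of their sample numbers 1 to 3.

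The intact cortex was a mixed tissue that kept its vessels, whereas the cultured cells had been released from the tissue with trypsin-containing enzymes and held overnight on a coated surface in a medium with serum, insulin, apotransferrin, selenium, progesterone and putrescine that favours neurons. The labels give 2 alternatives both for the enzyme step and for the coating, and do not say which one a given culture had. The control cultures also carried the Nes-cre transgene, in which the *Nestin* promoter drives Cre recombinase in neural progenitors, and the control cortices did not. Embryonic day, dissociation, culture, transgene and litter all changed together with the kind of sample and cannot be told apart, so each difference below is one between these cultures and these cortices.

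In the cortex at this stage, radial glia line the ventricle, divide there and give rise to intermediate progenitors and to excitatory neurons, which settle first in the deep layers and then in the upper layers. Inhibitory interneurons and Cajal-Retzius cells arise elsewhere and migrate in, and blood vessels, microglia and the meninges are of non-neural origin. Neurons plated from this tissue attach and start to grow new processes within hours. Cells that depend on vessels, on the ventricular surface or on continued division are not favoured in such cultures.

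The control libraries held 23005760 to 31157700 reads assigned to genes. The first principal component took 79.0% of the variance and separated the cultures from the cortices, and the second, with 7.07%, set culture 1 (-36.9) apart from cultures 2 and 3 (13.5 and 19.3). Levels are given in CPM, read counts scaled to a common library size, always for samples 1, 2 and 3 in that order and with the cortices before the cultures. Fold changes are log2 of cultures over cortices, with the false discovery rate (FDR) from the quasi-likelihood test of edgeR. The standard error (SE) was derived from the statistic of that test and the fold change before edgeR's shrinkage. It is therefore approximate beside the printed fold change, above all for genes with few reads. A number alone in brackets after a gene is its log2 fold change. *Phf6* was present in every library, at 177, 149.5 and 191 CPM in the cortices and 259, 228 and 254 CPM in the cultures (log2 fold change 0.52, SE 0.10, FDR = 5.89e-04). Per kilobase of exon, the neuronal tubulin *Tubb3* stood at 977 RPKM (CPM per kilobase of exon) in the cortices and 1137 in the cultures, the radial glial filament *Vim* at 300.1 and 79.8, and the endothelial junction gene *Cldn5* at 27.5 and 0. Transcripts of progenitors were thus still present in the cultures beside the neuronal ones, and those of the vessel wall were not detected for this gene.

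Of 14320 genes tested, 3541 (24.7%) were higher and 3777 (26.4%) lower in the cultures at an FDR below 0.05, and the 3 cultures did not overlap the 3 cortices for 8667 genes (60.5%). Against a null hypothesis of a change of up to 2-fold, 229 genes (1.6%) were higher and 1013 genes (7.07%) lower. The counts of called members given for each list below are to be read beside these shares of all genes. The same comparison among the 9 *Phf6*-deleted libraries called 28.0% of genes higher and 31.1% lower. The median log2 fold change of all tested genes in the control comparison was -0.028. Scaling by library totals or by the upper quartile moved that median to -0.167 and -0.124 and the higher share of the called genes from 48.4% to 33.0% and 37.7%, so the numbers of higher and lower genes are relative to the scaling used, and small changes are to be read against those shifts.

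**Figure D1:**
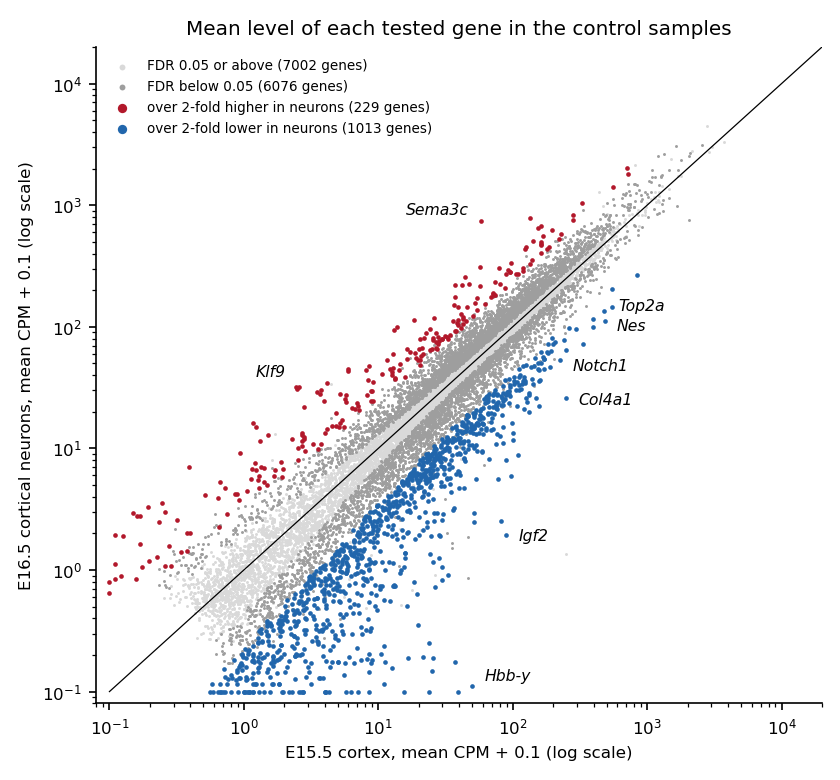
Mean CPM in the 3 control cortices (horizontal) against the 3 control cultures (vertical), both on log axes, with 1 point for each of the 14320 tested genes. The 1013 genes more than 2-fold lower in the cultures spread far below the diagonal, to genes such as *Hbb-y* near the lower edge, and the 229 genes more than 2-fold higher lie closer to it.

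Among genes of at least 20 CPM in the cultures, those with the highest fold changes included a growth factor subunit, a transcription factor and a guidance cue. *Inhba*, which encodes activin subunit A, stood at 1.63, 3.02 and 2.47 CPM in the cortices and 23.7, 30.6 and 37.6 CPM in the cultures (log2 fold change 3.70, SE 0.24, FDR = 3.59e-07). *Klf9*, a transcription factor induced by thyroid and steroid hormones, was at 1.97, 1.95 and 3.44 against 30.3, 32.9 and 32.2 CPM (log2 fold change 3.71, SE 0.20, FDR = 3.70e-08). *Sema3c*, which encodes a secreted guidance cue and lies at chr5:17574816-17730268 (GRCm38), was at 43.9, 66.3 and 65.0 against 779, 740.3 and 685 CPM (log2 fold change 3.66, SE 0.16, FDR = 1.40e-07). The rule that chose the genes at both ends required no overlap between cultures and cortices, so their separation is no further result. *Met* (the receptor of hepatocyte growth factor) and *Kcnj2* (an inward rectifier potassium channel) were also among the 10, with log2 fold changes of 2.94 and 3.03, as were *Usp43* (3.09) and the little-studied transcripts *Dbpht2* (3.11) and *1700086L19Rik* (2.97).

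The 10 genes at the other end all belong to vessels, blood or connective tissue. *Cldn5* (chr16:18776847-18778262), the tight junction protein of brain endothelium, was at 33.6, 37.3 and 45.9 CPM in the cortices and had no read in any culture. *Tie1*, an endothelial receptor tyrosine kinase, was at 23.0, 21.9 and 26.4 CPM in the cortices and likewise had no read. Set against a floor of 3 reads over the 3 cultures, *Cldn5* was at least 1003-fold lower and *Tie1* at least 612-fold lower. The endothelial surface genes *Cd93* (-8.72), *Aplnr* (-7.71) and *Adgrf5* (-7.22) had a few reads at most in the cultures. *Igf2*, the growth factor that meninges and vessels make in the foetal brain, was at 54.9, 54.2 and 156 against 1.28, 2.49 and 1.80 CPM (log2 fold change -5.59, SE 0.72, FDR = 0.00339). The remaining 4 were *Cdh5*, *Abcc9*, *Hbb-y* and *Col3a1*, which are described with their cell types.

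With all 6 libraries, the 4 lowest medians among the 19 lists of cell type markers were those of endothelial, erythroid, mural and meningeal cells, but without culture 1 the medians of regions outside the cortex (-4.17) and of the choroid plexus (-3.73) were below the meningeal one (-3.66). In bulk RNA, fewer cells of a type and less RNA per cell cannot be told apart, and this holds for each group of markers below. Of 13 endothelial genes tested, 12 were lower and 11 of them more than 2-fold, beside 26.4% and 7.07% of all genes, and the median log2 fold change was -5.32. *Kdr*, the main receptor of vascular endothelial growth factor, was at 48.8, 52.96 and 53.9 CPM in the cortices and 2.35, 2.08 and 2.68 CPM in the cultures (log2 fold change -4.45, SE 0.14, FDR = 8.72e-10). *Flt1*, the second such receptor, fell too (-5.32, SE 0.33), as did the adhesion molecule *Pecam1* (-4.58, SE 0.22). *Cdh5*, the endothelial cadherin, was at 24.2, 20.1 and 30.5 CPM in the cortices and at 0.147, 0 and 0 CPM in the cultures. *Sox17*, a transcription factor of arterial endothelium, had no read in the cultures and was at least 109-fold lower. The 1 lower gene of the list that did not pass the 2-fold test changed little (log2 fold change -0.33, SE 0.12, FDR = 0.0348). It was called in 2 of the 6 fits that left out 1 library. The exception in direction was *Slco1c1*, a thyroid hormone transporter of the blood-brain barrier, which was at 8.30, 16.2 and 14.6 CPM in the cortices and 39.3, 23.5 and 31.4 CPM in the cultures (log2 fold change 1.28, SE 0.27, FDR = 0.0042).

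Mural cells (pericytes and smooth muscle) were represented by 9 genes tested, with 8 of them lower, each by more than 2-fold, and a median of -3.94. *Rgs5*, a pericyte regulator of G proteins, was at 17.8, 18.4 and 18.5 against 0.734, 0.138 and 1.23 CPM (log2 fold change -4.68, SE 0.41, FDR = 1.19e-05), and *Vtn*, encoding vitronectin, at 15.8, 11.97 and 30.9 against 0.183, 0.277 and 0.307 CPM (log2 fold change -6.25, SE 0.47, FDR = 5.19e-06). *Abcc9*, a subunit of the pericyte potassium channel, was at 23.2, 25.6 and 27.2 CPM in the cortices and 0, 0 and 0.263 CPM in the cultures. *Acta2*, smooth muscle actin, was the only one of the 9 that rose, from 0.908, 0.636 and 3.03 to 8.29, 6.55 and 5.66 CPM (log2 fold change 2.18, SE 0.50, FDR = 0.00475).

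The red cell transcripts fell as well. All 7 erythroid genes tested were more than 2-fold lower (median -4.03), and their summed level was 271 to 421 CPM in the cortices and 13.5 to 32.5 CPM in the cultures. The adult beta globin *Hbb-bs* was at 73.0, 71.5 and 120.4 against 11.2, 8.21 and 4.30 CPM (log2 fold change -3.47, SE 0.42, FDR = 0.00147). The embryonic globin *Hbb-y* was at 102, 32.5 and 15.8 CPM in the cortices and 0.0367, 0 and 0 CPM in the cultures, and its call was lost without culture 1 (FDR = 0.107). The alpha globins *Hba-a1* and *Hba-a2* are near-identical copies whose reads cannot be assigned with certainty, and both were lower (-4.03 and -3.81). *Slc4a1*, the anion exchanger of red cells, had no read in the cultures and was at least 68.2-fold lower.

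The meningeal fibroblast genes were uneven among the cortices. Of 11 tested, 7 were lower and 5 more than 2-fold lower (median -3.62). *Foxc1*, a transcription factor of the meninges, was at 4.42, 3.46 and 10.1 CPM in the cortices and 0.147, 0.0923 and 0.0439 CPM in the cultures (log2 fold change -5.87, SE 0.59, FDR = 5.36e-06). The collagen genes were far higher in cortex 3 than in the other two: *Col1a1* was at 1.35, 2.74 and 49.2 CPM and *Col3a1* at 6.86, 12.8 and 119 CPM. *Col1a1* was not called (FDR = 0.109) except without cortex 3 (FDR = 0.0135), although every culture was below every cortex. *Col3a1* passed narrowly (FDR = 0.0499) and was no longer called without cortex 2 (FDR = 0.0635) or without any 1 of the 3 cultures (FDR = 0.149 to 0.151). The basement membrane that these cells and vessels share lost much of its transcript set, with 9 of 12 genes lower, 8 of them more than 2-fold, and a median of -2.58. *Col4a1*, a chain of type IV collagen, was at 225, 214 and 305 against 20, 28.9 and 28.3 CPM (log2 fold change -3.27, SE 0.18, FDR = 1.57e-06), and *Nid1*, which links collagen to laminin, at 44.2, 43.1 and 66.2 against 3.30, 2.17 and 3.07 CPM (log2 fold change -4.16, SE 0.22, FDR = 1.08e-07). *Sparc*, *Lama4* and the collagen receptor subunit *Itga1* also fell (-2.16, -3.92 and -4.36). *Fn1*, *Itgb1* and *Lamb1* were not called, with log2 fold changes of 0.40, -0.075 and -0.24.

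Choroid plexus transcripts differed from one cortex to the next. *Ttr*, the transthyretin gene that this epithelium makes in bulk, was at 0.501, 435 and 315 CPM in the cortices and 0.404, 2.12 and 1.27 CPM in the cultures and was not called (FDR = 0.07) except without cortex 1 (FDR = 3.27e-04). Cortex 1 was thus at the level of the cultures, and cortices 2 and 3 far above it. Of the 8 choroid plexus genes tested, 2 were called lower (*Otx2*, -2.85, and *Enpp2*, -2.32), and all 8 were called lower without cortex 1.

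Microglial genes were mixed. Of 14 genes tested, 5 were lower, 3 of them more than 2-fold, and the median was -0.62. The 3 were *P2ry12* and *Tmem119*, which mark resting microglia (-2.75 and -2.84), and *Csf1r*, the receptor on which microglial survival depends, at 12.8, 18.7 and 23.7 against 5.87, 5.77 and 6.14 CPM (log2 fold change -1.63, SE 0.21, FDR = 3.04e-05). *Cx3cr1* (-1.27) and *C1qa* (-1.10) were also called, though *C1qa* was not called without cortex 3 (FDR = 0.0716). The remaining 9 were not called, and 5 of them had a positive log2 fold change, among them *Trem2* (0.32) and *Tyrobp* (0.26).

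**Figure D2:**
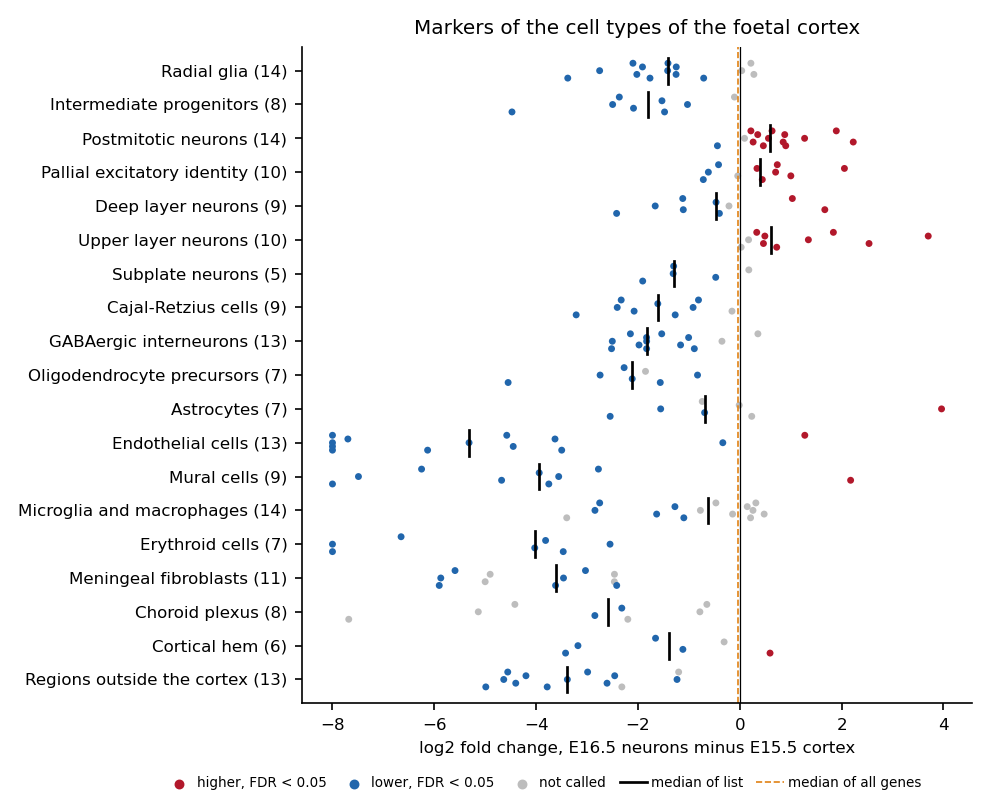
Log2 fold change of cultures over cortices for each tested member of the 19 cell type marker lists, 1 point per gene, with the list median as a bar and members below -8 drawn at -8. Most endothelial, mural, erythroid and meningeal genes lie far below 0. Progenitor, interneuron and regional genes lie mostly below 0, and postmitotic and upper layer neuron genes lie mostly above 0.

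Genes of radial glia fell as well. Of 14, 11 were lower and 7 more than 2-fold lower (median -1.41). *Sox2*, a transcription factor that maintains neural stem cells, was at 225, 166 and 179 CPM in the cortices and 58.7, 43.5 and 37.99 CPM in the cultures (log2 fold change -2.02, SE 0.17, FDR = 1.84e-05). *Nes*, the intermediate filament of progenitors, was at 471, 496 and 478 against 127, 101 and 110.1 CPM (log2 fold change -2.10, SE 0.093, FDR = 7.44e-09). *Pax6* (-1.42, SE 0.19), *Vim* (-1.91, SE 0.085) and the fatty acid binding protein *Fabp7* (-1.76, SE 0.26) fell too. None of these reached 0, and the summed level of the 14 genes was 2819 to 3035 CPM in the cortices and 1154 to 1607 CPM in the cultures. *Hopx*, *Ptprz1* and *Tnc*, which mark the outer and later radial glia, were not called (0.28, 0.22 and 0.039).

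Of the 8 intermediate progenitor genes, 7 were lower and 5 more than 2-fold (median -1.81). *Eomes*, the T-box factor that defines these cells, was at 265, 236 and 239 against 125, 76.3 and 64.0 CPM (log2 fold change -1.48, SE 0.25, FDR = 0.00392). The proneural gene *Neurog1* fell from 13.2, 7.28 and 7.44 to 0.587, 0.415 and 0.219 CPM (log2 fold change -4.47, SE 0.38, FDR = 1.05e-06), and its relative *Neurog2* fell too (-1.53, SE 0.14). *Insm1*, a zinc finger factor of the same cells, was not called (-0.10).

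The Notch pathway keeps radial glia in the progenitor state: ligands on neighbouring cells activate the receptor, and its cleaved part then switches on Hes and Hey repressors together with Rbpj. Of 15 genes, 13 were lower, 11 of them more than 2-fold, and the median was -1.95. The receptor *Notch1* was at 259.6, 208 and 204 against 68.6, 42.6 and 47.6 CPM (log2 fold change -2.08, SE 0.18, FDR = 3.49e-05), and *Notch2* fell by less (-1.72, SE 0.12). Among the targets, *Hes1* was at 28.0, 20.4 and 20.3 against 3.23, 1.34 and 1.93 CPM (log2 fold change -3.38, SE 0.28, FDR = 2.53e-06) and *Hes5* at 53.1, 31.6 and 36.2 against 7.81, 4.98 and 5.04 CPM (log2 fold change -2.75, SE 0.24, FDR = 1.06e-05). *Hes1* and *Hes5* also stand in the radial glial list and *Notch3* in the mural list. The ligands were mixed: *Dll1* (-0.80, SE 0.11), *Dll3* (-1.95, SE 0.23) and *Jag1* (-1.24, SE 0.16) fell, and *Jag2* rose (0.43, SE 0.12). *Rbpj*, the DNA-binding partner of the receptor, was not called (-0.15). *Heyl*, which mural cells also make, was at 9.52, 9.62 and 13.4 CPM in the cortices and 0, 0.0461 and 0 CPM in the cultures.

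Genes of the cell cycle fell without exception. All 27 DNA replication genes were lower, 14 of them more than 2-fold (median -1.31), and all 22 mitosis genes were lower, 16 of them more than 2-fold (median -1.71). Each of these genes was called again with any 1 library left out. *Mcm5*, a subunit of the replicative helicase, was at 136, 105 and 107 CPM in the cortices and 41.2, 25.1 and 25.7 CPM in the cultures (log2 fold change -1.91, SE 0.21, FDR = 1.28e-04), and *Mcm6* of the same ring was at 199, 197 and 195 against 98.7, 73.1 and 71.5 CPM (log2 fold change -1.28, SE 0.11, FDR = 2.28e-06). *Cdc6*, which loads the helicase, had the lowest fold change of the replication list (-2.43, SE 0.24). *Top2a*, the topoisomerase of dividing cells, was at 496, 451 and 483 against 171, 109 and 124 CPM (log2 fold change -1.82, SE 0.15, FDR = 9.01e-06). *Mki67*, the proliferation antigen, was at 417, 328 and 434 against 135, 70.5 and 91.5 CPM (log2 fold change -1.99, SE 0.26, FDR = 0.00146), and *Kif11*, the spindle motor, at 175, 160.2 and 173 against 71.0, 44.8 and 48.0 CPM (log2 fold change -1.63, SE 0.16, FDR = 2.20e-05). The smallest changes were those of *Rfc3* (-0.42, SE 0.11) and *Gins1* (-0.77, SE 0.13) among replication genes and of *Kif20b* (-0.99, SE 0.13) among mitosis genes.

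The promoters of these genes are shown because many members of these lists share short motifs there. RefSeq promoters (250 bases before to 50 after the start site, GRCm38.p6) were matched for 11363 tested genes, and motifs were searched on both strands. TTTGAA, the core of the cell cycle genes homology region, was present in 14 of the 19 mitosis promoters matched (73.7%), in 4 of 22 replication promoters (18.2%) and in 13.9% of all. TTTNNCGC, an E2F motif, was present in 11 of 22 replication promoters (50%), in 2 of 19 mitosis promoters (10.5%) and in 9.5% of all, and a second form that can overlap it, TTCNCGCC, in 8 of 22, 0 of 19 and 7.2%. Stretches of 90 bases upstream of the start are printed 5′ to 3′ in the direction of the gene, with motif matches on either strand in capitals (TTCAAA is TTTGAA read on the other strand). *Top2a* is shown at chr11:99024190-99024279 (- strand), *Kif11* at chr19:37376292-37376381 (+ strand) and *Mki67* at chr7:135716452-135716541 (- strand), all with TTTGAA. *Mcm6* at chr1:128359725-128359814 (- strand) and *Mcm5* at chr8:75109298-75109387 (+ strand) are shown with TTTNNCGC. A match of letters is a description of the window and no evidence of binding.
Top2a: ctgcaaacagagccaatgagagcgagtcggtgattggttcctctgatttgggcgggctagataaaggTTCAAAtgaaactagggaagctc
Kif11: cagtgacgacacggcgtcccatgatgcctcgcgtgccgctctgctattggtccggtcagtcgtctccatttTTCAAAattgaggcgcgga
Mki67: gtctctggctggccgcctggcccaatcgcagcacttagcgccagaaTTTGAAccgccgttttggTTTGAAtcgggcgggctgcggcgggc
Mcm6: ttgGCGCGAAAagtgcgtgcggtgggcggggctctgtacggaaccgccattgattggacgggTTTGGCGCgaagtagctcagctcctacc
Mcm5: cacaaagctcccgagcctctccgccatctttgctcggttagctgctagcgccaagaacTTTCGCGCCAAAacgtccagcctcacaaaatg

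The replication-dependent histone genes were not uniform. Their transcripts mostly lack a poly(A) tail and the libraries were made from polyadenylated RNA. Of 67 listed, 18 had enough reads to test, with 2 higher, 5 lower and a median of -0.16 that was 0.0092 without cortex 3. The 2 higher genes were 1 without cortex 1 or cortex 2 and 0 without culture 1. *H3c3* fell most (-4.30, SE 0.76).

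**Figure D3:**
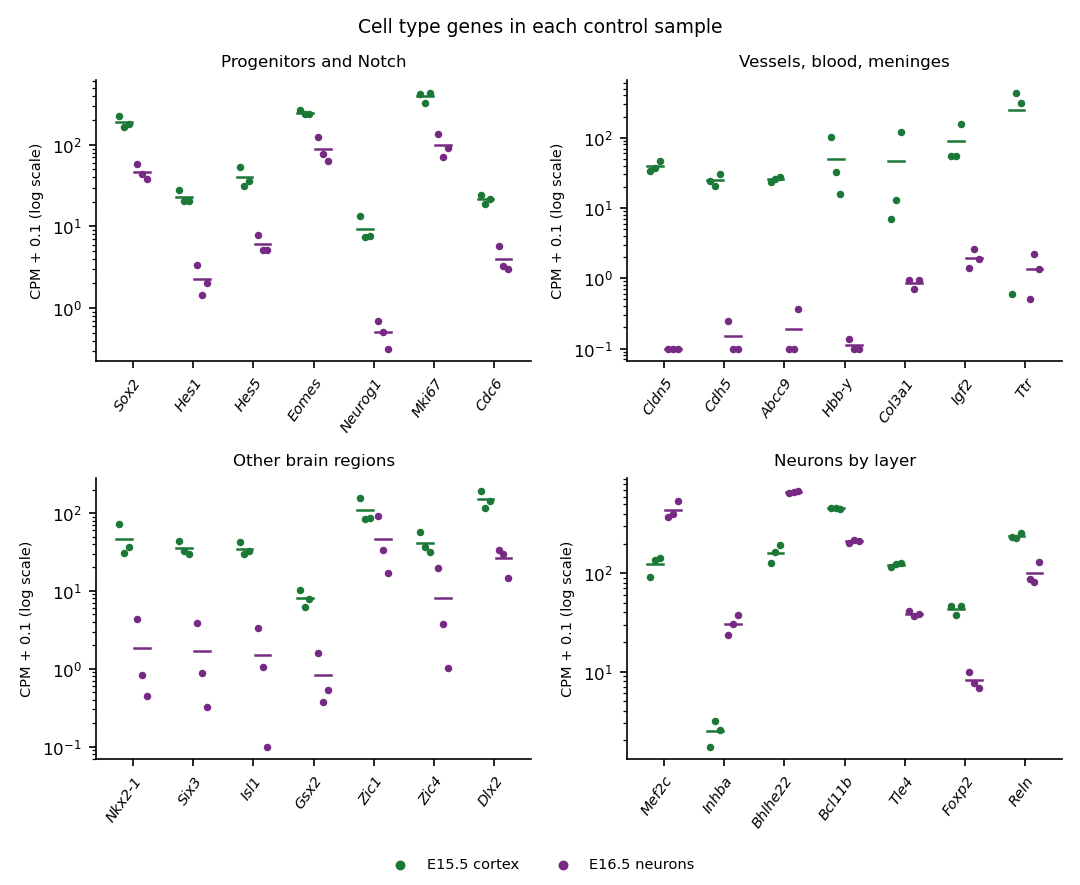
CPM + 0.1 on log axes in each control library for selected marker genes, 3 cortices and 3 cultures per panel with the group mean as a bar. Endothelial *Cldn5* is at 0 in the 3 cultures, the progenitor and cell cycle genes are lower in each culture than in each cortex, and *Mef2c* is higher in each culture.

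Markers of glia born later were tested too. Of 7 oligodendrocyte precursor genes, 6 were lower and 4 more than 2-fold (median -2.11). *Olig2*, a factor of this lineage and of ventral progenitors, was at 32.9, 20.7 and 22.2 against 5.25, 2.54 and 3.42 CPM (log2 fold change -2.74, SE 0.27, FDR = 1.41e-05). Of 7 astrocyte genes, 3 were lower and 1 was higher (median -0.69). The higher one was *Gfap*, the astrocyte intermediate filament, at 0.251, 1.35 and 1.58 CPM in the cortices and 17.5, 13.4 and 17.3 CPM in the cultures (log2 fold change 3.96, SE 0.48, FDR = 2.20e-04). *Aldh1l1* (-2.55, SE 0.16) and *Sparcl1* (-0.69, SE 0.17) fell, whereas the glial water channel *Aqp4* and the glutamate transporter *Slc1a2* were not called (0.24 and -0.011). *Gja1*, the main astrocyte connexin, was lower (-1.55, SE 0.38) but not called without culture 3 (FDR = 0.0785).

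Inhibitory interneurons enter the cortex from the ganglionic eminences. Of 13 of their genes, 11 were lower and 4 more than 2-fold (median -1.83). *Gad1*, the larger isoform of the enzyme that makes GABA, was at 84.2, 87.4 and 72.8 CPM in the cortices and 42.0, 53.9 and 35.8 CPM in the cultures (log2 fold change -0.89, SE 0.14, FDR = 2.12e-04). *Gad2* was at 139, 115 and 115 against 39.9, 33.7 and 29.9 CPM (log2 fold change -1.83, SE 0.12, FDR = 1.42e-07). *Dlx2*, a homeobox factor of the eminences, was at 193, 115 and 142 against 33.9, 29.8 and 14.5 CPM (log2 fold change -2.52, SE 0.40, FDR = 0.00506). The migrating interneuron factor *Lhx6* changed less (-1.005, SE 0.10), and *Maf* and *Nxph1* were not called (0.36 and -0.35). *Dlx1* (-2.15) was called with all 6 libraries but not when any of the 3 cortices (FDR up to 0.0684) or culture 2 (FDR = 0.0852) was left out. *Sst* (-1.16) was not called without any 1 of the cortices (FDR up to 0.109) or without culture 3 (FDR = 0.146). *Nkx2-1*, a gene of the medial eminence described below, was also present in the cortices. The parts of migrated interneurons and of eminence tissue in these differences were not tested.

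Genes of brain regions outside the cortex were present in the cortices and fell in the cultures. Of 13 tested, 11 were lower and 6 more than 2-fold (median -3.39). *Nkx2-1*, of the medial ganglionic eminence and hypothalamus, was at 71.5, 30.7 and 36.9 against 4.22, 0.738 and 0.351 CPM (log2 fold change -4.64, SE 0.92, FDR = 0.0148), and was not called without culture 2 (FDR = 0.0566). *Tcf7l2*, a thalamic factor, was at 18.1, 7.51 and 12.1 against 2.05, 2.26 and 1.89 CPM (log2 fold change -2.61, SE 0.30, FDR = 2.12e-05). *Otp*, of the hypothalamus, was at 6.01, 1.27 and 0.970 against 0.147, 0.0923 and 0 CPM, and *Sim1*, also hypothalamic, at 3.41, 0.437 and 1.82 against 0, 0.138 and 0.175 CPM. Cortex 1 was the highest cortex for these 4 genes. *Zic1*, of the septum and other midline tissue, was not called (FDR = 0.253), with 154, 82.9 and 86.8 CPM in the cortices and 90.6, 33.1 and 16.7 CPM in the cultures, where culture 1 reached the level of cortices 2 and 3. *Zic4* was at 56.5, 36.1 and 31.3 against 19.7, 3.69 and 0.921 CPM, each culture below each cortex, and was not called either (FDR = 0.15) except without culture 1 (FDR = 0.0148). The part of dissection in these differences was not tested.

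The cortical hem and the Cajal-Retzius cells that it produces lie at the edge and surface of the cortex. Of 6 hem genes, 4 were lower and 1 higher, with a median of -1.39 that rests on few genes and turned to 0.10 when genes of mean CPM below 5 were left out. *Wnt3a*, the ligand that defines the hem, fell (-3.42, SE 0.49), and *Rspo2* rose (0.59, SE 0.22), though not without cortex 1 (FDR = 0.146) or culture 3 (FDR = 0.0857). Of 9 Cajal-Retzius genes, 8 were lower and 5 more than 2-fold (median -1.61). *Reln*, the secreted protein by which these cells guide layering, was at 231, 229 and 259 against 87.1, 81.9 and 129 CPM (log2 fold change -1.27, SE 0.16, FDR = 1.80e-04), and *Trp73* was at 27.4, 16.3 and 25.2 against 4.11, 6.88 and 5.44 CPM (log2 fold change -2.07, SE 0.23, FDR = 2.08e-05). *Calb2* was not called (-0.15).

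Excitatory neurons of the upper layers are born last. Of 10 upper layer genes, 8 were higher and none was called lower, beside 24.7% and 26.4% of all genes, and 4 were more than 2-fold higher, beside 1.6% (median 0.61). Of 9 deep layer genes, 2 were higher and 6 lower (median -0.47). *Mef2c* (chr13:83504017-83667079), a transcription factor of maturing upper layer neurons, was at 91.8, 135 and 142 CPM in the cortices and 376, 398 and 545 CPM in the cultures (log2 fold change 1.84, SE 0.21, FDR = 4.08e-04). *Bcl11b*, a factor of neurons that project below the cortex, was at 462, 455 and 445 against 200.4, 219 and 213 CPM (log2 fold change -1.11, SE 0.074, FDR = 1.47e-07). The lowest culture for *Mef2c* was thus above the highest cortex, while for *Bcl11b* each culture was below each cortex. *Pou3f2* (1.35, SE 0.13) was another upper layer factor that rose, as did the signalling gene *Inhba*. *Cux1* and *Cux2* changed less (0.33, SE 0.072, and 0.49, SE 0.090), and *Rorb* and *Mdga1* were not called (0.027 and 0.17).

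Among deep layer genes, *Foxp2* of layer 6 was at 46.5, 37.1 and 46.0 against 9.87, 7.52 and 6.76 CPM (log2 fold change -2.42, SE 0.16, FDR = 1.22e-07), and the corepressor *Tle4*, also of layer 6, fell (-1.66, SE 0.091). *Tbr1* (-0.47, SE 0.082), *Fezf2* (-0.40, SE 0.10) and *Sox5* (-1.12, SE 0.10) fell by less. *Ldb2* and *Crym* rose (1.67, SE 0.15, and 1.03, SE 0.20), so the list was not uniform. Of 5 subplate genes, which mark the earliest cortical neurons, 4 were lower and none higher (median -1.30), with *Nxph4* at 35.7, 24.2 and 26.8 against 10.2, 14.7 and 10.3 CPM (log2 fold change -1.31, SE 0.18, FDR = 8.72e-05) and *Lpar1* lower too (-1.30, SE 0.17). *Ccn2* was not called (0.18), and 2 of the 5 genes were lower without cortex 2, cortex 3 or culture 2.

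The genes of general pallial identity were divided as well, with 6 higher and 3 lower of 10 (median 0.39). The differentiation factors *Neurod1*, *Neurod2* and *Neurod6* rose (0.70, 0.74 and 1.00), and *Bhlhe22*, a factor of area identity, rose most, from 128, 165 and 193 to 659, 675 and 685 CPM (log2 fold change 2.06, SE 0.13, FDR = 4.62e-07). *Emx1* and *Emx2*, which progenitors also express, fell (-0.42, SE 0.10, and -0.72, SE 0.15). The vesicular glutamate transporters moved apart: *Slc17a7* fell (-0.62, SE 0.14) and *Slc17a6* rose (0.44, SE 0.094).

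Most genes shared by all postmitotic neurons were higher. Of 14, 12 were higher, 3 of them more than 2-fold, and 1 was lower (median 0.60). *Dcx*, the microtubule protein of migrating neurons, was at 1515, 1599.6 and 1787 CPM in the cortices and 3219, 2626 and 3322 CPM in the cultures (log2 fold change 0.90, SE 0.10, FDR = 8.45e-06). *Nefm*, the medium neurofilament subunit, was at 50.7, 47.5 and 44.7 against 167, 217 and 287 CPM (log2 fold change 2.23, SE 0.18, FDR = 2.02e-05), and *Nefl*, the light subunit, at 40.5, 41.4 and 35.5 against 111, 150.2 and 176 CPM (log2 fold change 1.90, SE 0.15, FDR = 3.64e-06). The third of these filaments, *Ina*, which appears first in development, was the one that fell (-0.44, SE 0.077). *Rbfox3*, the gene of the mature neuron antigen NeuN, was not called (0.094).

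Of 24 genes of the growth cone and neuronal cytoskeleton, 15 were higher and 3 lower (median 0.39). *Stmn2*, which loosens microtubules at the growing tip, was at 575, 721 and 703 against 1143, 1264 and 1279.7 CPM (log2 fold change 0.88, SE 0.094, FDR = 6.02e-06), and its relative *Stmn4* rose more (1.62, SE 0.15). *Gap43*, the membrane protein of growing axons, was at 309.5, 334 and 329.7 against 394, 528 and 518 CPM (log2 fold change 0.56, SE 0.10, FDR = 6.46e-04). *Kif5c*, a motor of axonal transport, rose (0.88, SE 0.083), *Marcks* fell (-0.50, SE 0.080), and the actin protein *Dbn1* was not called (-0.0074).

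**Figure D4:**
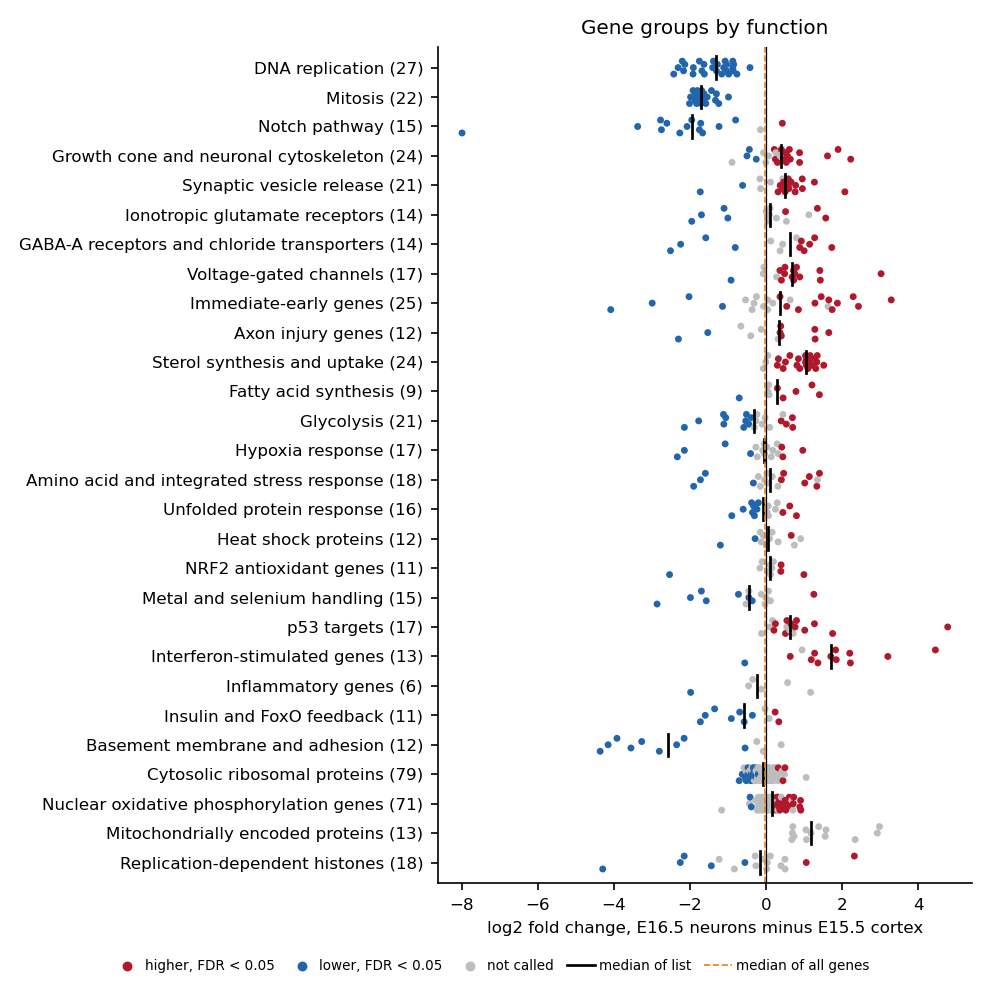
Log2 fold change of cultures over cortices for each tested member of the 28 functional lists, 1 point per gene, with the list median as a bar and members below -8 drawn at -8. Replication and mitosis genes lie below 0, and Notch and basement membrane genes lie mostly below 0. Sterol, interferon-stimulated and voltage-gated channel genes lie mostly above 0, and most stress lists are spread around 0.

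Synaptic vesicle genes rose in 15 of 21 cases and fell in 2 (median 0.50). *Snap25*, a core protein of vesicle fusion, was at 82.99, 83.5 and 94.0 CPM in the cortices and 184, 217 and 229 CPM in the cultures (log2 fold change 1.27, SE 0.10, FDR = 4.40e-07). *Syt4*, a synaptotagmin that activity induces, was at 115, 179 and 168 against 574, 636 and 736 CPM (log2 fold change 2.08, SE 0.17, FDR = 2.26e-05). *Sv2b*, a vesicle glycoprotein, went the other way, with 20.8, 31.5 and 21.3 against 6.27, 7.11 and 8.82 CPM (log2 fold change -1.73, SE 0.19, FDR = 1.19e-05). Its paralogue *Sv2a* rose slightly (0.32, SE 0.086), and the scaffold genes *Bsn* and *Pclo* were not called (-0.16 and 0.44).

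The receptors for the fast transmitters had subunits that rose and subunits that fell. Of 14 glutamate receptor genes, 3 were higher and 4 lower, shares close to the 24.7% and 26.4% of all genes, and the median of 0.10 turned to -0.041 under scaling by library totals. *Gria2*, the AMPA receptor subunit that blocks calcium entry, was at 229, 359 and 254 against 739, 761.7 and 1002 CPM (log2 fold change 1.57, SE 0.20, FDR = 5.20e-04). *Grin2b*, the main foetal NMDA receptor subunit, rose (1.35, SE 0.28), whereas *Grin2d* (-1.004, SE 0.19) and *Grin3a* (-1.70, SE 0.27) fell. *Grik3*, a kainate receptor subunit, was at 245, 272 and 232 against 75.5, 54.5 and 62.9 CPM (log2 fold change -1.95, SE 0.12, FDR = 1.06e-07). *Grin1*, the subunit common to NMDA receptors, was not called (0.041). Without cortex 2, 6 genes of this list were higher and 4 lower.

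Of 14 GABA-A receptor and chloride transporter genes, 6 were higher and 4 lower, beside 24.7% and 26.4% of all genes (median 0.62). *Gabra2* was at 13.7, 15.4 and 19.8 against 49.7, 47.8 and 64.6 CPM (log2 fold change 1.73, SE 0.16, FDR = 3.13e-06) and encodes a subunit that is abundant in the foetal brain. *Slc12a5*, which exports chloride and so makes GABA inhibitory as neurons mature, was at 47.8, 46.2 and 38.9 CPM in the cortices and 7.59, 9.04 and 6.67 CPM in the cultures (log2 fold change -2.51, SE 0.14, FDR = 5.18e-08). Its counterpart *Slc12a2*, which imports chloride, was not called, at 62.5, 71.7 and 71.4 against 75.4, 68.9 and 79.7 CPM (FDR = 0.298).

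Voltage-gated channels rose in 13 of 17 cases, with 1 lower (median 0.69). *Scn2a*, the sodium channel of young axons, was at 32.7, 48.1 and 39.9 against 95.4, 92.1 and 137 CPM (log2 fold change 1.43, SE 0.19, FDR = 2.29e-04). *Kcna1*, a delayed rectifier potassium channel, was at 18.2, 21.3 and 19.97 against 55.3, 47.0 and 56.2 CPM (log2 fold change 1.42, SE 0.11, FDR = 6.50e-07). The one that fell was *Cacna1g*, a low-threshold calcium channel (-0.92, SE 0.15).

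Immediate-early genes, which neurons switch on within minutes of activity or growth factor signals, moved in both directions. Of 25, 11 were higher and 4 lower, with 6 and 3 past 2-fold (median 0.37). *Fos* was at 0.689, 1.23 and 1.17 CPM in the cortices and 4.66, 6.18 and 5.79 CPM in the cultures (log2 fold change 2.43, SE 0.32, FDR = 3.70e-05), *Egr1* at 2.38, 1.99 and 3.52 against 9.65, 15.9 and 13.1 CPM (log2 fold change 2.29, SE 0.26, FDR = 1.03e-05), and *Egr2* at 0.251, 0 and 0.0404 against 0.660, 1.71 and 0.921 CPM (log2 fold change 3.30, SE 0.81, FDR = 0.00357). All of these encode transcription factors of the first wave. *Arc*, the synaptic effector of the same wave, was at 9.71, 6.28 and 7.24 against 1.504, 1.85 and 2.37 CPM (log2 fold change -2.03, SE 0.27, FDR = 4.28e-05), and *Egr3* at 2.35, 2.43 and 2.02 against 0.257, 0.323 and 0.263 CPM (log2 fold change -2.996, SE 0.44, FDR = 8.55e-05). Both fell although their relatives rose. *Bdnf*, the neurotrophin, was at 1.85, 1.63 and 1.213 against 3.96, 7.34 and 6.10 CPM (log2 fold change 1.88, SE 0.31, FDR = 2.46e-04). *Klf2*, which endothelium expresses strongly, fell (-4.09, SE 0.39), beside the endothelial genes above. *Junb*, *Ier2* and *Dusp1* were not called (-0.37, -0.32 and 0.043).

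Genes induced by axon injury overlap this list in *Jun* and *Atf3*. Of 12, 6 were higher and 2 lower (median 0.34). *Jun* was at 133, 115 and 111 against 137, 158 and 169 CPM (log2 fold change 0.37, SE 0.10, FDR = 0.00675), *Klf6* at 40.6, 45.9 and 42.2 against 93.9, 102 and 117 CPM (log2 fold change 1.28, SE 0.10, FDR = 5.98e-07), and *Adcyap1*, the neuropeptide PACAP, at 4.20, 4.37 and 3.64 against 7.41, 9.74 and 12.8 CPM (log2 fold change 1.29, SE 0.23, FDR = 4.33e-04). These were higher in each culture than in each cortex. *Gadd45a*, *Gal* and *Hspb1* were not called (-0.40, -0.66 and -0.13), and *Sprr1a* and *Vip* had too few reads to test.

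Cells make cholesterol from acetyl-CoA through mevalonate and squalene, and Srebf2 switches on the genes of this route when membrane sterol is low. These genes rose almost as a block: 21 of 24 were higher, 5 of them more than 2-fold, and none was called lower (median 1.04, against -0.028 for all genes). *Hmgcs1*, at the entry to mevalonate, was at 515, 569 and 592 CPM in the cortices and 1287, 1354 and 1624 CPM in the cultures (log2 fold change 1.35, SE 0.10, FDR = 2.33e-07). *Sqle*, the epoxidase of squalene, was at 175, 201 and 194 against 406, 429 and 420.3 CPM (log2 fold change 1.14, SE 0.080, FDR = 2.17e-07). For both genes the lowest culture exceeded the highest cortex. *Sc5d*, a late desaturase, had the highest fold change, from 43.0, 38.2 and 45.9 to 119.6, 118 and 127 CPM (log2 fold change 1.52, SE 0.094, FDR = 9.23e-08), and *Msmo1* (1.34, SE 0.084) and *Cyp51* (1.28, SE 0.086) rose too. *Insig1*, which holds the Srebp proteins back, rose (1.31, SE 0.087), and *Srebf2* itself rose by less (0.33, SE 0.078). *Mvk* (-0.0052) and *Ebp* (0.048) were among the 3 that were not called.

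RefSeq promoters were matched for 16 of the 24 sterol genes, and 3 are shown for a motif that these 16 share. CCAAT, the box bound by nuclear factor Y, was present in 16 of 16 and in 42.8% of all, in 39.9% of those of all higher genes and in 46.8% of those of all lower genes. It was also present in 16 of 19 promoters (84.2%) of the mitosis genes, all of which fell. TCACNCCAC, one form of the sterol response element, was present in 1 of 16 (*Hmgcs1*) and in 1.39% of all, and the looser TCACNNNAC in 6 of 16 (37.5%) and in 12.4% of all. *Hmgcs1* is shown at chr13:119690241-119690330 (+ strand), *Mvd* (the mevalonate decarboxylase, 1.10, SE 0.10) at chr8:122443425-122443514 (- strand) and *Sc5d* at chr9:42264301-42264390 (- strand), with CCAAT or its reverse complement ATTGG in capitals.
Hmgcs1: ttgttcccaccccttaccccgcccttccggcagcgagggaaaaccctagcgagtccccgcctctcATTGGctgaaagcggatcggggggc
Mvd: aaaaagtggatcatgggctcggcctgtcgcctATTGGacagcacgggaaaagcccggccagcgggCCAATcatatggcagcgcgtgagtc
Sc5d: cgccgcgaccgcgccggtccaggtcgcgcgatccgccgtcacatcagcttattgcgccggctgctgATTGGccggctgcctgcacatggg

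Fatty acid synthesis moved less evenly, with 5 of 9 genes higher and 1 lower (median 0.30). *Scd1*, a fatty acid desaturase, was at 22.8, 25.5 and 26.6 against 61.7, 64.9 and 71.8 CPM (log2 fold change 1.40, SE 0.10, FDR = 3.56e-07), and *Elovl6*, an elongase, rose (1.209, SE 0.091). *Fasn* and *Acly* were not called (0.070 and 0.050), and *Srebf1*, the regulator of this route, fell (-0.70, SE 0.11).

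**Figure D5:**
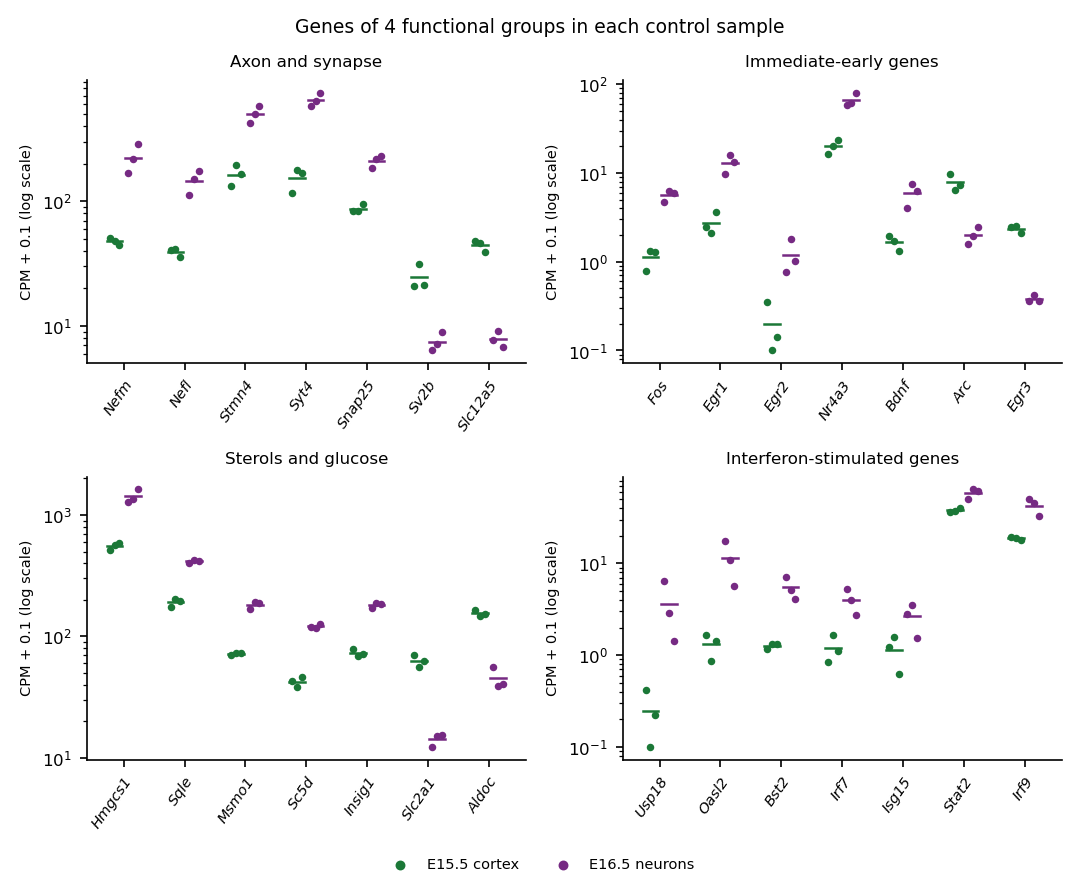
CPM + 0.1 on log axes in each control library for selected genes of the functional lists, 3 cortices and 3 cultures per panel with the group mean as a bar. *Hmgcs1*, *Fos* and *Stat2* are higher in each culture than in each cortex, and *Slc12a5* and *Arc* are lower.

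Glucose metabolism and its regulators were lower in more cases than they were higher. Of 21 glycolysis genes, 4 were higher and 10 lower (median -0.31). *Slc2a1*, the glucose transporter of brain endothelium and other cells, was at 70.4, 55.6 and 62.1 against 12.2, 15.1 and 15.2 CPM (log2 fold change -2.15, SE 0.13, FDR = 7.14e-08). *Slc2a3*, the neuronal transporter, rose (0.53, SE 0.10). *Aldoc*, the aldolase of glia, was at 164, 147 and 152 against 56.1, 39.1 and 40.2 CPM (log2 fold change -1.77, SE 0.13, FDR = 7.60e-07), while *Aldoa* was not called (-0.10). The enolases parted in the same way, with *Eno1* lower (-1.06, SE 0.13) and the neuronal *Eno2* higher (0.69, SE 0.12). *Gapdh*, whose many processed copies can share its reads, was not called, at 6.58, 4.06 and 3.27 against 4.40, 5.17 and 4.17 CPM (FDR = 0.952).

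The hypoxia response had 3 genes higher and 4 lower of 17, beside 24.7% and 26.4% of all genes. Its median of -0.044 turned to 0.18 with GC and length offsets. *Vegfa*, its best-known target, was at 77.7, 74.2 and 50.7 against 59.6, 81.7 and 81.5 CPM and not called (FDR = 0.555). *Ndrg1* rose (0.97, SE 0.13) and *Ankrd37* fell (-2.33, SE 0.33).

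The culture medium held insulin. Of 11 genes of insulin signalling and FoxO feedback, which include FoxO factors and receptors themselves, 7 were lower and 2 higher (median -0.57). *Txnip*, which limits glucose uptake, was at 79.0, 105 and 95.1 against 24.2, 22.1 and 38.03 CPM (log2 fold change -1.73, SE 0.21, FDR = 2.36e-04). *Pdk4* (-1.60, SE 0.41), *Foxo1* (-0.91, SE 0.15) and the adaptor *Irs1* (-0.69, SE 0.12) were lower too, and *Ccng2* was higher (0.34, SE 0.081). Without cortex 1, culture 1 or culture 3, 1 gene of the list was higher in place of 2. The part of insulin was not tested, since no culture without it was analysed here.

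The medium also held apotransferrin and selenium, whose part was not tested, since no culture without them was analysed here. Of 15 genes of metal and selenium handling, 1 was higher and 7 lower (median -0.45). The higher one was *Tfrc*, the transferrin receptor, at 89.4, 64.8 and 69.1 against 185, 171 and 179 CPM (log2 fold change 1.26, SE 0.11, FDR = 2.12e-06). *Slc40a1*, the iron exporter, was at 10.5, 13.6 and 20.5 against 2.09, 1.66 and 2.32 CPM (log2 fold change -2.87, SE 0.27, FDR = 2.46e-06). The metallothioneins *Mt1* and *Mt3*, which bind zinc and copper and are abundant in glia, fell (-1.57, SE 0.31, and -1.70, SE 0.32), and *Mt2* was not called (-0.45). The ferritin genes *Fth1* and *Ftl1* and the selenoenzyme *Gpx4* were not called (0.12, -0.025 and -0.0061).

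Interferons act through a transcription factor complex that holds Stat2 and Irf9 and switches on a set of antiviral genes. Of 13 such genes, 11 were higher, 3 of them more than 2-fold, and 1 was lower (median 1.70). Without cortex 1, culture 1 or culture 2, 9 were called higher, and the median without culture 1 was 1.36. Within the complex, *Stat2* was at 35.8, 37.3 and 40.0 CPM in the cortices and 50.3, 63.9 and 61.7 CPM in the cultures (log2 fold change 0.64, SE 0.11, FDR = 3.13e-04) and *Irf9* at 19.3, 18.7 and 17.8 against 49.9, 45.0 and 32.4 CPM (log2 fold change 1.19, SE 0.15, FDR = 2.37e-05). Each culture was above each cortex for both genes. Among the targets, *Bst2*, which tethers budding virus, was at 1.06, 1.23 and 1.213 against 7.04, 5.08 and 4.04 CPM (log2 fold change 2.20, SE 0.31, FDR = 6.71e-05), *Oasl2* at 1.57, 0.755 and 1.33 against 17.6, 10.9 and 5.53 CPM (log2 fold change 3.21, SE 0.44, FDR = 2.53e-04), and *Usp18*, which removes Isg15 from proteins, at 0.313, 0 and 0.121 against 6.35, 2.77 and 1.32 CPM (log2 fold change 4.46, SE 0.84, FDR = 0.00134). *Usp18* and *Oasl2* were low in the cortices, and culture 1 was the highest culture for these targets. *Isg15* (1.28) was at low levels, 1.13, 1.47 and 0.526 against 2.71, 3.46 and 1.45 CPM, and was not called without cortex 1 (FDR = 0.0632), cortex 3 (FDR = 0.1001), culture 1 (FDR = 0.0567) or culture 2 (FDR = 0.130). *Ifit2* was the one that fell (-0.56, SE 0.17), though not without cortex 3 (FDR = 0.0699) or culture 2 (FDR = 0.0610), and *Ifih1* was not called (0.95). *Ifit1* and *Ifit3* had too few reads to test.

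Of the 10 interferon-stimulated promoters matched, 6 (60.0%) held a pair of GAAA blocks with any 2 bases between them, a form of the interferon-stimulated response element, as did 3.4% of all, 3.48% of those of all higher genes and 3.42% of those of all lower genes. *Isg15* is shown at chr4:156200855-156200944 (- strand), *Bst2* at chr8:71537567-71537656 (- strand) and *Stat2* at chr10:128270248-128270337 (+ strand), with this motif in capitals, as TTTC blocks where it lies on the other strand.
Isg15: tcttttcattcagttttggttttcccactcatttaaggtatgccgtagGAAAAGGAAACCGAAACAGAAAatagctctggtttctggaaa
Bst2: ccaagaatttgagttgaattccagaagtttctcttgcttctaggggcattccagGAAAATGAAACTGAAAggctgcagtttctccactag
Stat2: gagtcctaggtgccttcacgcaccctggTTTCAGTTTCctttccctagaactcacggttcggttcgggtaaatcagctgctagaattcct

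Inflammatory genes gave few reads: 6 of 15 could be tested, none was called higher and 1, the adhesion molecule *Icam1*, was lower (-1.98, SE 0.59). The median was -0.23. *Il1b*, *Il6*, *Tnf* and *Ccl2* were among those without enough reads. *Nfkbia*, the feedback inhibitor of NF-kappaB, was not called (-0.12).

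Targets of p53 rose in 11 of 17 cases and none was called lower (median 0.62). Without cortex 1, cortex 3 or culture 1, 8 of them were called higher, and the median without culture 1 was 0.42. *Ccng1*, cyclin G1, was at 32.2, 30.6 and 40.8 against 81.9, 71.3 and 97.2 CPM (log2 fold change 1.27, SE 0.14, FDR = 1.08e-05), and *Eda2r*, a death receptor, at 2.47, 2.31 and 4.77 against 12.3, 8.998 and 10.7 CPM (log2 fold change 1.75, SE 0.28, FDR = 1.81e-04). *Bbc3*, the pro-death gene also called Puma, rose less (0.80, SE 0.16). *Cdkn1a*, which arrests the cell cycle, was at 13.6, 8.43 and 11.6 against 24.8, 13.2 and 13.6 CPM and was not called (FDR = 0.0778), nor was *Bax* (0.17). *Mdm2* was called at a small size (0.21, SE 0.083) and was not called when any 1 of the 6 libraries was left out.

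The stress lists were mixed. Of 18 genes of the amino acid and integrated stress response, 6 were higher and 4 lower, beside 24.7% and 26.4% of all genes. The median of 0.11 turned to -0.024 under scaling by library totals. *Atf4*, its central factor, was at 99.1, 88.5 and 93.8 against 126, 133 and 129 CPM (log2 fold change 0.46, SE 0.082, FDR = 4.03e-04), and *Asns*, asparagine synthetase, at 26.8, 30.5 and 31.8 against 68.4, 82.9 and 85.0 CPM (log2 fold change 1.41, SE 0.11, FDR = 5.90e-07). The serine synthesis enzymes *Phgdh* and *Psat1*, which are targets of Atf4 and also abundant in radial glia, fell (-1.90, SE 0.23, and -1.60, SE 0.10). Of 16 genes of the unfolded protein response, 3 were higher and 8 lower (median -0.086). *Sdf2l1* (-0.90, SE 0.17) and *Creld2* (-0.60, SE 0.13) fell, *Edem1* rose (0.80, SE 0.10), and *Xbp1* was not called (0.25). The 8 lower genes of this list were 5 without cortex 2 or cortex 3 and 4 without culture 2, and the 3 higher genes were 5 without cortex 3.

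Of 12 heat shock genes, 1 was higher (*Hsp90aa1*, 0.66, SE 0.088) and 2 were lower (*Bag3*, -1.20, SE 0.29, and *Hspa4l*, -0.29, SE 0.11, called in 3 of the 6 fits that left out 1 library), with a median of 0.046 that was -0.092 under scaling by library totals and -0.049 by the upper quartile. The inducible *Hspa1a* was at 0.814, 0.517 and 0.849 against 0.881, 0.784 and 2.02 CPM and was not called (FDR = 0.23). Of 11 NRF2 antioxidant genes, 3 were higher and 1 lower, beside 24.7% and 26.4% of all genes. The median of 0.12 turned to -0.021 under scaling by library totals. *Hmox1*, heme oxygenase, rose from 5.82, 2.39 and 4.37 to 10.3, 7.89 and 6.97 CPM (log2 fold change 1.00, SE 0.30, FDR = 0.013), and *Nqo1*, a quinone reductase, fell from 1.41, 1.47 and 2.26 to 0.330, 0.0923 and 0.439 CPM (log2 fold change -2.54, SE 0.55, FDR = 0.00156).

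Ribosomal and respiratory chain genes moved little. Of 79 cytosolic ribosomal protein genes, 3 were higher and 19 lower, beside 24.7% and 26.4% of all genes, and none was past 2-fold (median -0.070). Without cortex 1, 2 were higher and 11 lower, and without culture 3, 10 were higher and 7 lower, so the balance within this list rested on single libraries. *Rplp0*, of the ribosomal stalk, was at 559, 515 and 534 against 389.8, 403 and 366 CPM (log2 fold change -0.47, SE 0.076, FDR = 1.74e-04). Many of these genes have processed copies in the genome that can take their reads. Of 71 nuclear genes of oxidative phosphorylation, 21 were higher and 2 lower, beside the same shares of all genes, and none was past 2-fold (median 0.15). The 2 lower genes were 0 without cortex 1, 5 without culture 1 and 1 without culture 3, and the 21 higher genes were 15 to 29 over these fits. *Cox7b* rose from 45.2, 43.3 and 54.6 to 92.1, 93.4 and 79.7 CPM (log2 fold change 0.89, SE 0.11, FDR = 1.93e-05).

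The 13 genes that mitochondrial DNA encodes all had positive log2 fold changes (median 1.18), yet none passed the test. Cortex 2 was the lowest library for them, as shown by the complex I subunit *ND1* at 1108, 425 and 904 against 2447, 1596 and 2328 CPM (FDR = 0.0556) and the complex IV subunit *COX1* at 3588, 1910.0 and 2885 against 4422, 3828 and 5312 CPM (FDR = 0.0712). Without cortex 2, 7 of the 13 were called higher, without cortex 1, 3 were, and without culture 2, 1 was. The highest and the lowest cortex thus differed by about as much as the cultures differed from the cortices.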

How the data were processed

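Polyadenylated RNA from control and *Phf6*-deleted cortices and neuron cultures was sequenced by the study as stranded paired-end libraries. The authors aligned the reads to mm10 with Rsubread and deposited raw counts per Entrez gene, made with featureCounts and its inbuilt RefSeq annotation and without pooling of replicates. The strand setting is not given in the sources used here, so reads of overlapping and antisense genes cannot be told apart. The submitters' processing notes also name bcl2fastq. Rows without an identifier took 0.412 to 0.505% of the reads of the 6 control libraries and were left out. Of 26150 identifiers, 875 could not be matched to the RefSeq table (GRCm38.p6), and these, pseudogenes, ribosomal RNA and predicted names were removed, which left 23132 genes.

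The 3 control cultures were compared with the 3 control cortices in R 4.3.3 with edgeR 4.0.16: default low-count filter (14320 genes kept), TMM scaling, the robust quasi-likelihood test, a test against 2-fold from the same fit (glmTreat), with p-values adjusted by Benjamini and Hochberg's method across the tested genes and called below 0.05. No litter term could be fitted, since litters are nested in the kind of sample. A gene is described as higher, lower, risen or fallen only where it passed this threshold. Each library is 1 foetus, so p-values measure the spread between foetuses of a group. CPM used the same scaling, and RPKM the exon lengths deposited beside the counts. A fold against cultures without a read was computed against a floor of 3 reads over the group, which covers counting error only.

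The genes named are the 10 with the highest and lowest fold changes among called genes of at least 20 mean CPM in the higher group and no overlap between groups, and for each list members taken from the 3 most abundant, the 3 with the largest called changes and the first 3 listed, with *Phf6* and *Nes*. By this rule 178 of the 254 tested genes named in the text were chosen. The other 76 (such as *Acta2*, *Arc*, *Egr1*, *Bdnf*, *Tfrc*, *Slc17a6*, *Slc17a7*, *Mcm5* and *Bst2*, and members named because they were not called) were chosen after their values were seen, and some genes that the rule chose are not reported here. The 47 lists and their members were chosen with earlier results of these data known.

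On data simulated for this comparison (14189 genes), 72% of genes changed by 0.8 on the log2 scale and 94% of those changed by 2 were recovered, with 16 false calls. Only a small set of genes was changed there, none of them of very low level, with as many raised as lowered. In the real comparison 51.1% of genes were called. The simulation therefore does not measure recovery or scaling where many genes change, nor recovery of genes with few reads. The alternatives were DESeq2 1.42.0, limma-trend (limma 3.58.1), other scalings and filters, all gene types, thinning to equal totals, GC and length offsets (mgcv 1.9.3), leaving out each library, the replicate number as a block, the *Phf6*-deleted libraries and all 15 libraries. Both fits with *Phf6*-deleted libraries held littermates and had no litter term, so littermates counted as independent there.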

Additional observations from a re-analysis of the deposited data

How the results depend on the processing

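Against 3541 genes higher and 3777 lower in the cultures, 13 alternatives other than leaving out a library gave 2459 to 4686 and 3107 to 5146. None of these counts moved by over 1.5 times. Against 229 genes more than 2-fold higher and 1013 more than 2-fold lower, a minimum mean of 5 CPM gave 148 and 580, with fewer genes tested. Leaving out 1 library gave 3038 to 3386 higher, 3221 to 3735 lower, 184 to 241 more than 2-fold higher and 776 to 1186 more than 2-fold lower. Of the 7318 genes called, 5442 were called in all 6 of these fits and 0 changed sign. Scaling by library totals gave 2459 higher and 5003 lower, and the upper quartile 2786 and 4601.

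Samples of the same number came from different litters, so the numbers do not pair them. With the number as a replicate block, 3644 genes were higher and 3878 lower, 250 and 1068 of them more than 2-fold. The deviations of same-numbered samples from their group means correlated at 0.0996, 0.0454 and 0.0449.

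The 47 list medians were recomputed under 19 alternatives. In 791 of 893 cases they moved by less than the spread between libraries, in 91 by more with the same sign, and in 11 by more with the sign turned: for the cortical hem at a minimum of 5 CPM (0.10), glutamate receptors (-0.041), the integrated stress response (-0.024) and NRF2 genes (-0.021) with library totals, heat shock genes with library totals (-0.092), a minimum of 5 CPM (-0.041) and the upper quartile (-0.049), hypoxia genes with GC and length offsets (0.18) or without culture 2 (0.014) or culture 3 (0.062), and histones without cortex 3 (0.0092). Any turn of sign smaller than the spread is counted among the 791. With 1 library left out the hypoxia median ranged from -0.073 to 0.062 and that of the histones from -0.33 to 0.0092.

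Of 4786 recomputed fold changes of named genes, 4611 kept their direction and their side of the threshold or stayed below it, 80 lost the call and 88 gained one. In 7 cases the sign turned together with a call in the recomputed fit, in each for a gene that was not called with the 6 control libraries: GC and length offsets gave *Dbn1* 0.28, *Mvk* 0.26, *Ptprz1* -0.31 and *Slc12a2* -0.29, and the *Phf6*-deleted libraries gave *Ier2* 0.33, *Junb* 0.78 and *Rorb* -0.43. Any turn of sign without a call in either fit is counted among the 4611. The cause was not tested. Among genes not called in the report, *Maf* (FDR = 0.00392), *Calb2* (FDR = 0.0168) and *Mt2* (FDR = 0.0266) were called without culture 1, *Pclo* (FDR = 2.94e-04), *Ptprz1* (FDR = 0.00479) and *Cdkn1a* (FDR = 0.0375) without culture 2, *Bax* (FDR = 0.0330), *Nxph1* (FDR = 0.0435) and *Cdkn1a* (FDR = 0.0484) without culture 3, *COX1* (FDR = 0.0212) and *Lamb1* (FDR = 0.0344) without cortex 1, *ND1* (FDR = 0.00383) and *COX1* (FDR = 0.0245) without cortex 2, and *Xbp1* (FDR = 0.00266) and *Fn1* (FDR = 0.0203) without cortex 3. Counting error limited genes with few reads, and 8812 genes fell below the filter and were not tested.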

Other observations

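The 9 *Phf6*-deleted libraries gave the same kind of comparison without sharing a library with the controls: 4 cultures of *Phf6* lox/Y;Nes-cre foetuses at E16.5 against 5 cortices of *Phf6*-/Y foetuses at E15.5, from the same litters apart from 1 culture. Of 14168 genes tested in both, 7277 were called with the controls and 8420 with the deleted libraries. Called in both with the same direction were 6438 (88.5% of the control calls and 76.5% of those of the deleted libraries), and 0 were called in opposite directions. Of 1222 genes changed by more than 2-fold with the controls, 1051 were also changed by more than 2-fold the same way with the deleted libraries. More samples entered the second fit. Deleted cortices 2 and 3 shared litter 2 and deleted cortices 4 and 5 shared litter 1, and that fit counted littermates as independent. The difference between the fits was not tested.

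The gene groups lay side by side in most lists. With the deleted libraries, all 27 replication and all 22 mitosis genes were lower (medians -1.31 and -1.74), 12 of 13 endothelial and 8 of 9 mural genes were lower (-5.60 and -4.49), 20 of 24 sterol genes were higher (1.03), and 11 of 13 interferon-stimulated genes were higher (1.94).

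Of all genes tested, 28.0% were higher and 31.1% lower with the deleted libraries, beside 24.7% and 26.4% with the controls, and some lists gave more calls there. Of 25 immediate-early genes, 18 were higher with the deleted libraries (median 0.83) and 11 with the controls (0.37). *Fos* was at 3.64 beside 2.43, *Bdnf* at 2.37 beside 1.88 and *Junb* at 0.78 (FDR = 0.0174) beside -0.37 (FDR = 0.297), while *Arc* was at -1.99 beside -2.03. Of 18 genes of the amino acid and integrated stress response, 11 were higher with the deleted libraries (median 0.46) and 6 with the controls (0.11), and *Atf4* was at 0.76 beside 0.46. Of the 13 mitochondrially encoded genes, 9 were higher with the deleted libraries and 0 with the controls, though the median was smaller (0.93 beside 1.18).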
